A study of Homo sapiens and Mus musculus with 12 samples.

Results

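TSPAN8 and LYZ are genes of the long arm of chromosome 12 that belong to published signatures of the classical subtype of pancreatic ductal adenocarcinoma (PDA). They were chosen by the width of the GATA6 peaks beside them, the widest nuclear ones of the list, and the members described here are all peaks of the 2 human lists with at least 1 bp within 100 kb of either gene. On hg19 the genes lie at 71518 to 71552 kb (TSPAN8, band 12q21.1) and 69742 to 69748 kb (LYZ, band 12q15), so the windows measured 234 kb and 206 kb. They held 21 of the 13445 human peaks, 13 from the GATA6 list of 10670 and 8 from the SPDEF list of 2775. Gene edges were known to the kb, so distances to a gene are good to about 1 kb, while peak widths and overlaps are exact.

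The libraries were made by CUT&RUN, in which a nuclease guided by an antibody cuts out the DNA next to a bound protein. All 8 human libraries came from HPAF-II, an established PDA cell line, carrying human SPDEF with an HA tag (HA-hSPDEF). The HA antibody, which reads the tagged SPDEF, and the GATA6 antibody were each used on 3 libraries, and IgG and H3K4me3 on 1 each. The other 4 libraries, from the mouse line FC1245 (genotype KrasLSLG12D/+; Trp53LSLR172H/+; Pdx1-Cre, C57/Bl6) with HA-mSpdef, were not analysed here. Because every human library carried HA-hSPDEF, the GATA6 list describes cells with the tagged factor and not untagged cells. Each target had 1 peak list and no values per library, so no value below has a replicate error and no difference was tested. The lists give positions alone, with no height, score or depth, and the IgG and H3K4me3 libraries gave no values used here.

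GATA6 is a zinc-finger transcription factor that binds sites with a GATA core and is widely used as a marker of the classical, more differentiated form of PDA. SPDEF is an ETS-family factor of goblet and other mucus-secreting cells, and ETS factors bind sites with a GGA core. TSPAN8 encodes a tetraspanin, a membrane-spanning protein that organises other proteins at the cell surface and on exosomes. LYZ encodes lysozyme, a secreted enzyme that cleaves the bacterial cell wall and is made by Paneth cells, gastric gland cells and macrophages.

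The widest GATA6 peak lay across the start of TSPAN8, within the precision of the gene edge, and most of it upstream. The promoter next to that start is therefore printed. RefSeq lists 2 starts for TSPAN8, 190 bases apart, and the sequence gives the 250 bases before the outer one, on the minus strand of GRCh38.p14 (chr12:71158000-71158249). The sequence was not located on hg19. Capitals mark the letters GATA, GGAA and GGAT on either strand.
TSPAN8 promoter: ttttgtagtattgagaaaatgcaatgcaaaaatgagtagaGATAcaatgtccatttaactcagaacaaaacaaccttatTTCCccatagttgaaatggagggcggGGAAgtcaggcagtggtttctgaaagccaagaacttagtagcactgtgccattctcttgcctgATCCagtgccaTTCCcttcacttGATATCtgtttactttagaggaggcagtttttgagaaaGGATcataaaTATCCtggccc
The usual 6-letter GATA sites, made of the core GATA with A or T directly before it and A or G directly after it, were not found on either strand, against 22.3% of 35116 RefSeq promoter windows of the same length that hold at least 1. The shorter core GATA, searched after that result was known, matched 4 times, and 45.6% of all promoters hold it. A pair of these matches overlap each other on opposite strands. The ETS core GGAA matched 3 times, and 92.7% of all promoters hold it. The variant GGAT also matched 3 times, and 70.7% of all promoters hold it, and the match nearest the start overlaps a GATA match. These letters are common, and a match is not a measured binding site. Beyond these 250 bases the wide GATA6 peak, of 8036 bp, was not searched. The absence of the 6-letter sites thus holds for the printed bases only. The table matched 1 of the 2 genes, TSPAN8.

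Around TSPAN8 the GATA6 list held 9 peaks. The widest, at chromosome 12, 71551319 to 71559354, measured 8036 bp and ranked 1 of the 10664 GATA6 peaks on autosomes and X. By the gene edge used, 682 bp of it lay inside the gene and 7354 bp upstream of the start, and the part inside is smaller than the precision of that edge. It was 23.2 times as wide as the median GATA6 peak (346 bp) and made up 67.6% of the GATA6 peak length in the window. The gene was chosen by this width, so the rank is a description.

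Another 5 GATA6 peaks lay inside TSPAN8, all near its start. The outermost, 71546795 to 71547710, was 916 bp wide and began 4.29 kb into the gene. The next ones, in order towards the start, were 235 bp, 196 bp, 198 bp and 48 bp wide, at 71548783 to 71549017, 71549346 to 71549541, 71550413 to 71550610 and 71550939 to 71550986. Together with the wide peak they covered 9629 bp, or 76.7%, of a stretch of 12560 bp. The gaps between neighbours in this row were 1072, 328, 871, 328 and 332 bp. The remaining 28.8 kb of the gene, towards its end, held no GATA6 peak. In the whole list 17 GATA6 peaks (0.159%) had at least 5 others within 5 kb. All 6 peaks of this row were among the 17.

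The other 3 GATA6 peaks of the TSPAN8 window stood alone. One of 725 bp (71576546 to 71577270) lay 24.5 kb upstream of the start, on the side of LGR5, the next protein-coding gene, which encodes a receptor of Wnt-dependent stem cells. Those of 823 bp (71479135 to 71479957) and 715 bp (71439810 to 71440524) lay 38.0 kb and 77.5 kb beyond the end of the gene, on the side of PTPRR, a receptor-type tyrosine phosphatase gene. Their width ranks were 2194, 1679 and 2257, the last of which is 21.2% of the way down the list. None of them overlapped an SPDEF peak, beside 16.1% of the whole GATA6 list that did.

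All 4 SPDEF peaks of the TSPAN8 window lay wholly inside the 8036 bp GATA6 peak. The one nearest the gene, 71552368 to 71552553, was 186 bp wide and 0.367 kb upstream of the start. That distance is smaller than the precision of the gene edge, so whether this peak reaches the start was not resolved. The others were 216 bp (71556848 to 71557063), 471 bp (71557353 to 71557823) and 804 bp (71558168 to 71558971) wide, at 4.85, 5.35 and 6.17 kb upstream. Width thus grew with distance from the gene among these 4, and the 804 bp peak ranked 137 of 2769 SPDEF peaks on autosomes and X. A stretch of 4294 bp without an SPDEF peak separated the one nearest the gene from the other 3, which were 289 and 344 bp apart. The outermost ended 383 bp short of the GATA6 peak's upstream edge. The 5 smaller GATA6 peaks inside the gene carried no SPDEF peak, beside 16.1% of the whole GATA6 list that carried at least 1. These 5 are too few to be set apart from that share. That the SPDEF peaks were listed only on the upstream part of the GATA6 row is therefore a description.

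**Figure D1:**
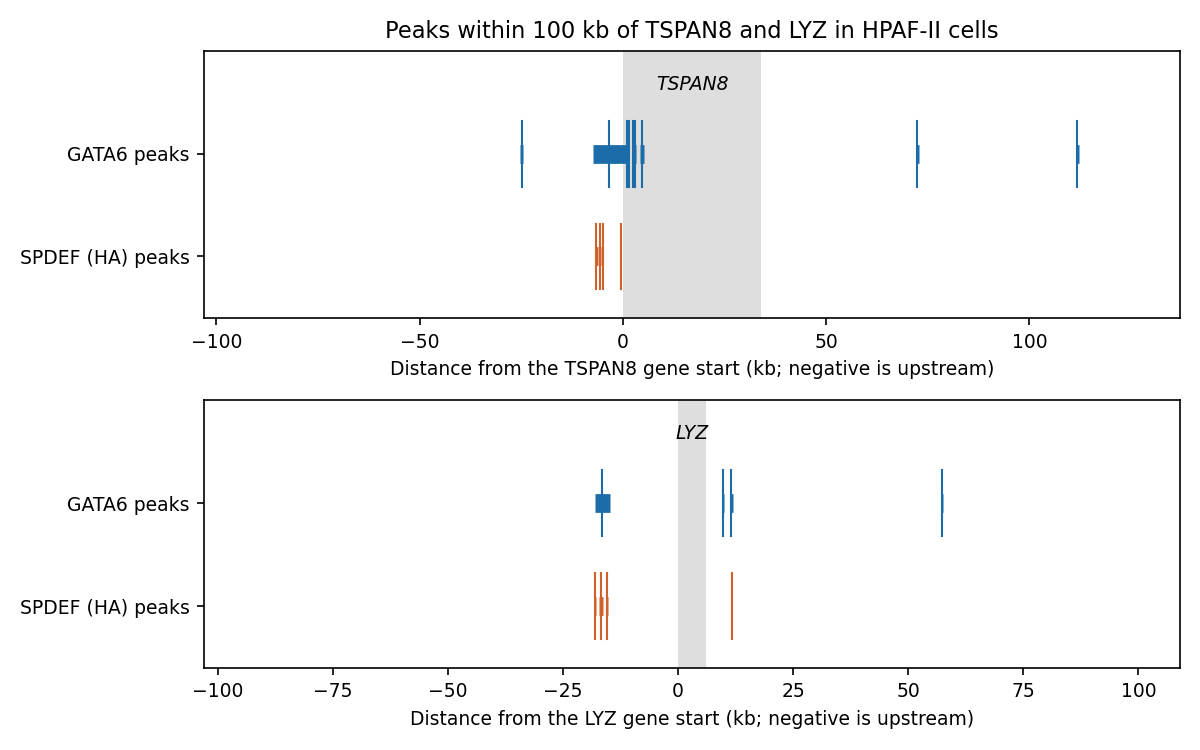
Peaks of the GATA6 list (blue) and the SPDEF list (HA antibody, orange) within 100 kb of TSPAN8 (top) and LYZ (bottom), by distance from the gene start in kb along the direction of transcription. Thick bars are drawn to scale, thin vertical lines mark peak midpoints, and grey marks the gene. The SPDEF peaks stand upstream of TSPAN8 within 7 kb and, for LYZ, in a group of 3 about 15 to 18 kb upstream with 1 beyond the gene.

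Around LYZ the GATA6 list held 4 peaks, and none touched the gene. The widest, 69723850 to 69727123, measured 3274 bp and ranked 2 on autosomes and X, 9.46 times the median width. With GATA6 peaks within 1 kb of each other joined, it ranked 30, while the joined peak at TSPAN8 still ranked 1. It ended 14.9 kb upstream of LYZ, on the side of CPSF6, which encodes a factor of messenger RNA 3′ end processing. It made up 71.9% of the GATA6 peak length in that window. The next widest peak of the list was 3120 bp, in 1p36.33, so the width of the LYZ peak stands close to those below it while the TSPAN8 peak stands apart.

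The other 3 GATA6 peaks lay beyond the end of LYZ. A narrow one of 84 bp (69751787 to 69751870) was 3.79 kb past the end, and one of 683 bp (69753218 to 69753900) was 5.22 kb past it. The next protein-coding gene on that side is YEATS4, which encodes a subunit of chromatin-modifying complexes that reads acetylated histones. Whether the 683 bp peak lies at the start of YEATS4 was not determined, since neighbouring genes were taken by order alone. The last, of 514 bp (69799014 to 69799527), was 51.0 kb past the end. Peaks under 100 bp, such as the 84 bp peak here and the 48 bp peak in TSPAN8, made up 2.99% of the GATA6 list.

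The SPDEF list held 4 peaks around LYZ, 3 of them wholly inside the 3274 bp GATA6 peak. These measured 178 bp (69723933 to 69724110), 856 bp (69724737 to 69725592) and 303 bp (69726456 to 69726758), at 17.9, 16.4 and 15.2 kb upstream of the gene. The 856 bp peak, in the middle, ranked 104 in the SPDEF list and had its midpoint 0.322 kb from the centre of the GATA6 peak. The outer ones stood 83 bp and 365 bp from the edges. The fourth SPDEF peak, 197 bp wide (69753568 to 69753764), lay wholly inside the 683 bp GATA6 peak, 5.57 kb past the end of LYZ.

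**Figure D2:**
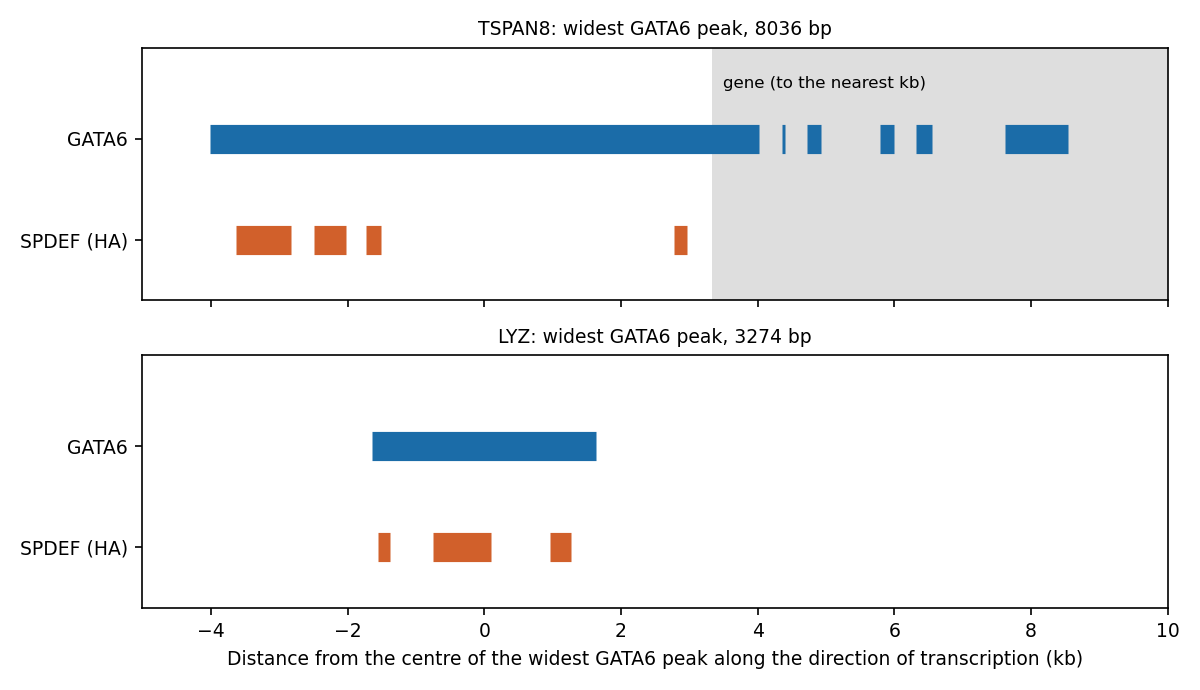
The widest GATA6 peak at TSPAN8 (top, 8036 bp) and LYZ (bottom, 3274 bp) with the GATA6 (blue) and SPDEF (orange) peaks around it, by distance in kb from the centre of the wide peak along the direction of transcription. Grey marks the TSPAN8 gene, and the LYZ gene begins to the right of the range drawn. The 4 SPDEF peaks at TSPAN8 lie on both sides of a stretch of 4294 bp without one, and the 3 at LYZ are spread from 83 bp off one edge to 365 bp off the other.

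Inside the wide GATA6 peaks, SPDEF peaks covered 1677 of 8036 bp at TSPAN8 (20.9%) and 1337 of 3274 bp at LYZ (40.8%). Among the 1716 GATA6 peaks on autosomes and X with an SPDEF peak, the covered share had a median of 62.6% and quartiles of 34.2% and 91.4%. The TSPAN8 share was thus below the lower quartile and the LYZ share between it and the median. The share is divided by peak width, by which these peaks were chosen, so its place is a description. Among the 10 widest GATA6 peaks on autosomes and X, the others with an SPDEF peak had shares of 16.0%, 54.3%, 70.9% and 100%. By number, the wide peaks held 0.498 SPDEF peaks per kb at TSPAN8 and 0.916 per kb at LYZ, against 0.355 per kb over all GATA6 peaks and 0.404 per kb over the 61 that are at least 2 kb wide. Both comparison values include GATA6 peaks without an SPDEF peak. With SPDEF peaks within 1 kb joined, the wide peaks carried 2 at TSPAN8 and 1 at LYZ, and values per kb were not recomputed.

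Taking both windows, 8 of 8 SPDEF peaks shared at least 1 bp with a GATA6 peak (100%, exact 95% Clopper-Pearson interval 63.1 to 100), beside 64.7% of the whole SPDEF list. All 8 lay wholly inside a GATA6 peak, beside 38.1% of the list. The interval reaches down past 64.7%, and 7 of the 8 share just 2 GATA6 peaks that were chosen for their width, so the count is a description of these places. From the other side, 3 of 13 GATA6 peaks carried an SPDEF peak (23.1%, interval 5.04 to 53.8), beside 16.1% of the whole GATA6 list. These were 1 of 9 around TSPAN8 and 2 of 4 around LYZ. Intervals cover counting error only.

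SPDEF peaks in groups on a single GATA6 peak were rare. Of the 10664 GATA6 peaks on autosomes and X, 1716 carried an SPDEF peak, 102 (0.956%) carried 2 or more, 7 (0.0656%) carried 3 or more and 2 (0.0188%) carried 4, which was the highest number. The TSPAN8 peak was one of those 2, the other lying in 8q24.21, and the LYZ peak was one of the 7. A wide peak has more room, and 5 of the 7 were at least 2 kb wide. Of the 61 GATA6 peaks of at least 2 kb, 41 carried an SPDEF peak (67.2%), 13 carried 2 or more and 5 carried 3 or more.

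The wide peaks at the genes were then set beside the other 8 of the 10 widest GATA6 peaks on autosomes and X, which were between 2746 and 3120 bp wide. Of those 8, 4 carried an SPDEF peak, and none carried more than 2. The peaks in 12q24.23 and 12q13.13 carried 2 each, those in 1p36.33 and 8q24.12 carried 1 each, and those in 2p16.2, 1q31.2, 17q24.1 and 5q13.3 carried none. With SPDEF peaks within 1 kb of each other joined and counted once, the numbers were 2 at TSPAN8 and 1 at LYZ, against at most 1 in the other 8. Other GATA6 peaks within 10 kb of the wide peak numbered 5 at TSPAN8 and 0 at LYZ, against 0 to 2 at the other 8. Within 100 kb of the peak the numbers were 7 at TSPAN8 and 3 at LYZ, against 0 to 11. The SPDEF peaks within 100 kb, 4 and 5, lay within the range of 0 to 6 for the others.

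**Figure D3:**
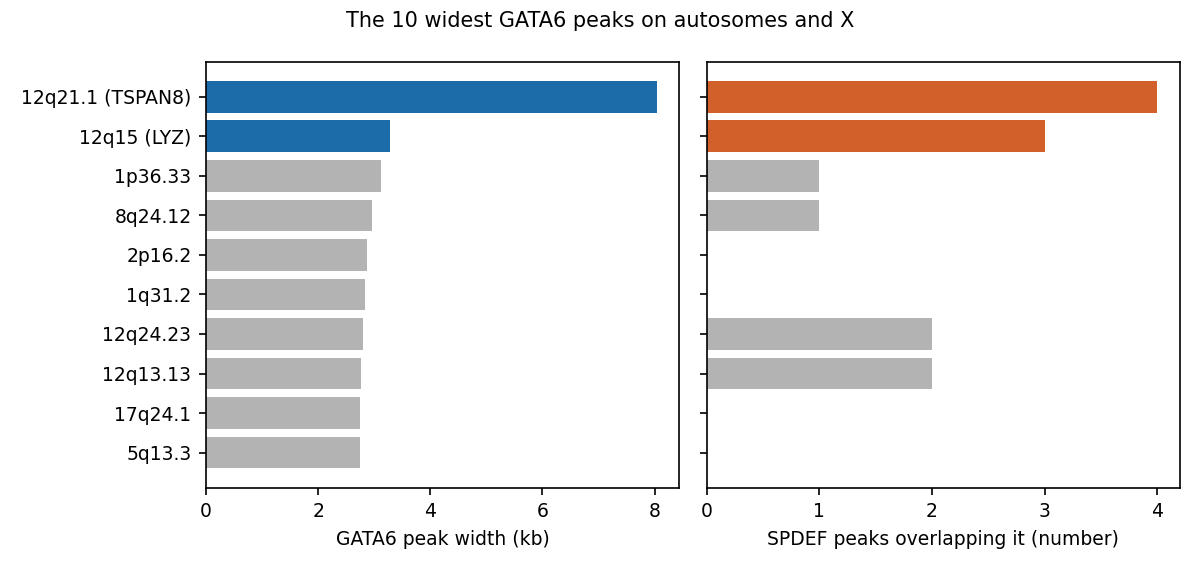
The 10 widest GATA6 peaks on autosomes and X, by cytogenetic band, with their width in kb (left) and the number of SPDEF peaks overlapping each (right). The peaks at TSPAN8 and LYZ are in colour and the other 8 in grey. They carried 4 and 3 SPDEF peaks as listed, against at most 2 in the others, and 2 and 1, against at most 1, with SPDEF peaks within 1 kb joined.

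Widths varied among the 21 members. GATA6 peaks ran from 48 to 8036 bp around TSPAN8, with a median of 715 bp, and from 84 to 3274 bp around LYZ, with a median of 598.5 bp. Both medians were above that of the list, 346 bp, and both include the wide peak by which the gene was chosen. SPDEF peaks ran from 186 to 804 bp around TSPAN8, with a median of 343.5 bp, and from 178 to 856 bp around LYZ, with a median of 250 bp, against 268 bp in the list. The widest SPDEF peak of the list measured 3125 bp, in 1p36.33, where it covered 100% of a GATA6 peak of 3120 bp. At these genes the widest SPDEF peaks ranked 104 and 137 of 2769. These ranks are 3.76% and 4.95% of the way down the list. The GATA6 peaks under them ranked highest, but the genes were chosen by that width, so the contrast is a description.

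**Figure D4:**
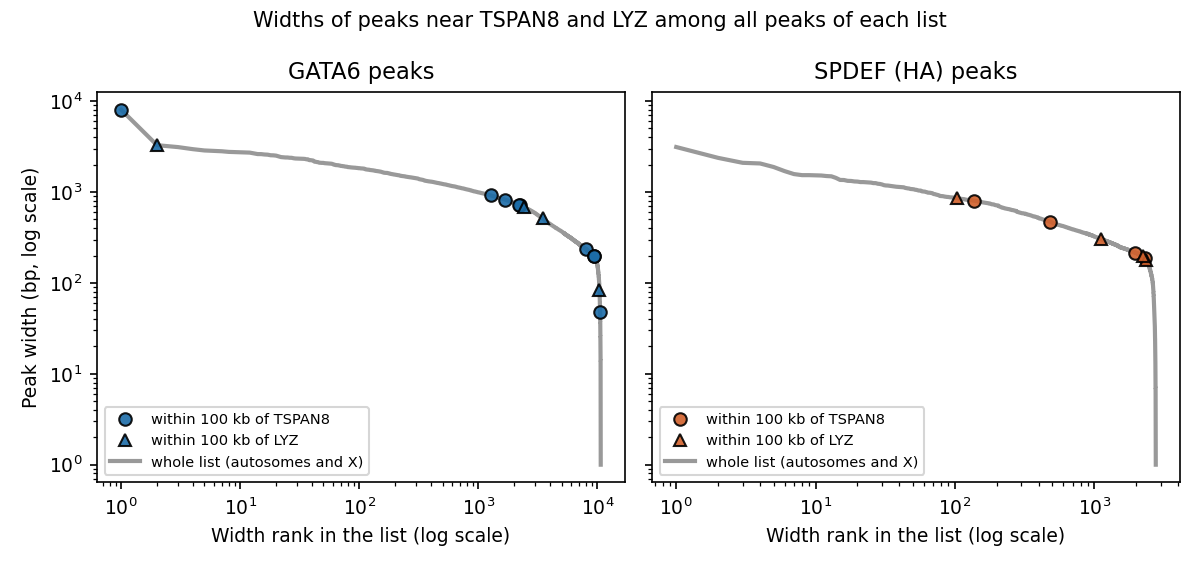
Peak width in bp against width rank within the GATA6 list (left) and the SPDEF list (right), both axes on a log scale. Circles are peaks within 100 kb of TSPAN8, triangles those within 100 kb of LYZ, and the grey line is the whole list on autosomes and X. The GATA6 peaks at ranks 1 and 2 are those by whose width the 2 genes were chosen. The widest SPDEF peaks near the genes rank 104 and 137.

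Peak density in the windows was set beside that of chromosome 12. The chromosome was itself denser than autosomes and X together. It held 7.1 against 3.51 GATA6 peaks per Mb, and 2.51 against 0.912 SPDEF peaks per Mb. The GATA6 list held 38.5 peaks per Mb around TSPAN8 and 19.4 around LYZ, against 7.1 per Mb over the chromosome. The ratios were 5.42 for TSPAN8 (exact 95% Poisson interval 2.48 to 10.3) and 2.74 for LYZ (0.745 to 7.0). The windows were chosen by a GATA6 peak in them, so these GATA6 ratios are a description, and without the wide peak they were 4.82 and 2.05. The SPDEF list held 17.1 peaks per Mb around TSPAN8 and 19.4 around LYZ, against 2.51 per Mb. Those ratios were 6.81 (1.86 to 17.4) and 7.74 (2.11 to 19.8). Peaks cluster, so these intervals are too narrow. Without the SPDEF peaks on the wide GATA6 peaks, 0 SPDEF peaks were left around TSPAN8 and 1 around LYZ. Most SPDEF peaks here thus lie on the GATA6 peaks by which the windows were chosen, so the SPDEF ratios are a description too.

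No other SPDEF peak lay close to those at TSPAN8. The nearest others lay 478 kb from the gene on the side of its end (24 bp, 71040034 to 71040057) and 506 kb upstream (658 bp, 72057746 to 72058403). The gaps between the 4 members and these neighbours were 512 kb and 499 kb, beside a median of 105 kb and a mean of 383 kb over the 335 gaps between neighbouring SPDEF peaks on chromosome 12. At LYZ the nearest others were 108 kb upstream (243 bp, 69633489 to 69633731), just outside the window and with no GATA6 peak on it, and 231 kb beyond the end (381 bp, 69979208 to 69979588), on a GATA6 peak of 141 bp. The first GATA6 peaks outside the windows lay 142 kb upstream and 292 kb past the end of TSPAN8, and 277 kb upstream and 231 kb past the end of LYZ, and their widths were 196, 669, 193 and 141 bp.

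The genes are 1770 kb apart, with 11 protein-coding genes between them. The 1570 kb between the windows held 21 GATA6 peaks, or 13.4 per Mb, and 7 SPDEF peaks, or 4.46 per Mb. Both densities were above those of chromosome 12 (7.1 and 2.51 per Mb) and below those of either window. The widest peaks of this stretch were 1730 bp for GATA6 (71149395 to 71151124) and 874 bp for SPDEF (70843052 to 70843925). A GATA6 peak was present under 5 of those 7 (71.4%, exact 95% Clopper-Pearson interval 29.0 to 96.3), and an SPDEF peak on 5 of the 21 GATA6 peaks (23.8%, 8.22 to 47.2). Median widths there were 447 bp for GATA6 and 349 bp for SPDEF.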

How the data were processed

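The deposited files used are 2 peak lists of HPAF-II, one per target, with 3 columns (chromosome, start, end) and no other values. They were assigned to the GATA6 and HA groups by the target in their names. MACS2 2.2.7.1, Bowtie2 2.4.4, deepTools and SAMtools 1.14 are listed, with the builds hg19 and mm10, per the submitters' processing notes. Not given in the sources used here are the role of each tool, the way 3 libraries became 1 list, the control, the threshold and the depth. A peak's width depends on those settings. In both lists 0 peaks ended past an hg19 chromosome end.

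Members and comparisons were chosen with earlier results of these data known. Positions are printed counting from 1. A peak was a member if at least 1 bp lay within 100 kb of the gene, and peaks were shared if they had at least 1 bp in common. Every member is named. Width ranks leave out the mitochondrial genome and chromosome Y (6 peaks of each list). The direction of transcription came from the RefSeq promoter table for TSPAN8 and from general knowledge for LYZ. Neighbouring genes came from the GRCh38.p14 gene table by order alone, and no coordinates were converted. R 4.3.3 with circlize 0.4.16 supplied chromosome lengths and bands. Counts and intervals used scipy 1.17.1 and numpy 2.4.6 under Python 3.11.15, and plots matplotlib 3.10.9. The overlap and distance steps were tested on simulated data.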

Additional observations from a re-analysis of the deposited data

How the results depend on the processing

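No paired analysis was possible because the 3 libraries of a target are represented by a single list. Of 62 alternatives, 44 left the value within 1.5 times, or within its interval for shares, and 18 moved it. With peaks within 1 kb joined, there were 5 GATA6 and 2 SPDEF peaks at TSPAN8 and 2 SPDEF peaks at LYZ. The TSPAN8 wide peak then measured 10572 bp and still ranked 1, ahead of 6385 bp, while the LYZ peak ranked 30. SPDEF peaks so joined numbered 2 on the wide peak at TSPAN8 and 1 at LYZ. With the wider 50% of each list there were 5 GATA6 and 2 SPDEF peaks at TSPAN8 and 2 SPDEF peaks at LYZ. Within 10 kb of LYZ lay 2 GATA6 peaks and 1 SPDEF peak. Within 500 kb lay 20 GATA6 peaks at TSPAN8 and 11 at LYZ. With 50% of both peaks shared, 0% of the SPDEF and 0% of the GATA6 members counted as shared, a rule that excludes short peaks inside wide ones by construction. With midpoints within 1 kb, 25% of the SPDEF members did. Without the SPDEF peaks on the wide GATA6 peaks, the SPDEF density ratio to chromosome 12 was 0 at TSPAN8 and 1.93 at LYZ. The distance of 500 kb, the 1 kb wider gene, the joined SPDEF peaks and the omission of the wide sites were chosen after seeing the data. Depth is unknown, so a peak that is not listed may be one that was not detected.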

Other observations

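The 7 GATA6 peaks on autosomes and X that carried at least 3 SPDEF peaks lay, besides 12q21.1 (TSPAN8) and 12q15 (LYZ), in 8q24.21 (2289 bp, 4 SPDEF peaks), 1q21.3 (2713 bp, 3), 20q11.23 (2463 bp, 3), 11p13 (1534 bp, 3) and 11q13.1 (1274 bp, 3). Those in 11p13 and 11q13.1 ranked 208 and 431 by width, so grouped SPDEF peaks were also listed on GATA6 peaks well below the widest. This list was drawn up after the values were seen, and no test was run on it.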
